A study of Danio rerio with 12 samples.

Results

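The regions described here are stretches of the zebrafish genome that were highly methylated in control cells sorted as haemogenic endothelium. They were less methylated after knockdown of the DNA methyltransferase gene dnmt3ba. They were chosen by measured values in the authors' deposited table of regions that differ between morphants and controls, all with a q-value under 0.05. Members lie on a numbered chromosome other than 4, have fewer than 10 CpG sites per 100 bases, a control methylation level of 0.8 or more, and a lower level in morphants. The rule found 926 of the 7550 regions listed. A methylation level is the fraction of methylated cytosine at the CpG sites of a region, from 0 to 1. Because the control level, the direction of the difference and the q-value chose the members, their levels and falls are given as a description, with no test.

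Whole-genome bisulfite sequencing and RNA-seq were done on embryos of 2 groups at 36 hours post-fertilisation, with 3 libraries per group and assay. One group carried a dnmt3ba morpholino, an antisense oligonucleotide that lowers the output of its target transcript, and is labelled dnmt3ba knockdown. The other was the control, labelled WT, and the sources used here do not say what, if anything, it was injected with. All embryos carried the Tg(kdrl:mCherry/runx1:en-GFP) reporters, and about 5000 cells from the trunk that were positive for both colours were sorted per sample, so each library pools cells of several embryos. The methylation table gives 1 level per group for each region, with no value per library and no coverage. The spread between replicates, and the depth behind each level, are therefore unknown for every level below. A level between 0 and 1 in bulk DNA does not separate partial methylation in all cells from full loss in some of them.

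DNA methylation in vertebrates is mostly found at cytosines followed by guanine. New methyl groups are set by the Dnmt3 enzymes, of which zebrafish has several genes, and are copied at replication by Dnmt1 with its partner Uhrf1. Most of the vertebrate genome outside CpG-rich promoters and active enhancers is highly methylated, including gene bodies and transposable elements, and high methylation of such sequences is commonly linked to silencing of transposons and cryptic promoters.

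The knockdown cannot be read from the target's transcript. dnmt3ba stood at 112, 197 and 159 TPM (a length-scaled transcript share) in morphants 1, 2 and 3, against 122, 271 and 113 TPM in controls 1, 2 and 3. The groups overlap, and a morpholino that blocks translation need not lower this value. In the same RNA libraries the summed level of 6 endothelial markers was 1197 to 1240 TPM in morphants and 630 to 697 TPM in controls. Among these, cdh5, tie1 and kdrl overlapped between the groups, so the sum does not hold for each gene. The share of all genes that separate the groups was not counted, so nothing particular to the markers is read from the sums. kdrl, whose promoter drives the mCherry reporter, stood at 122, 22.8 and 118 TPM in morphants 1, 2 and 3 and at 21.2, 60.6 and 16.6 TPM in controls 1, 2 and 3. The sum of 4 haemogenic markers (runx1, myb, gfi1aa and gata2b, of which gata2b overlaps between the groups) was 198 to 216 TPM in morphants and 322 to 369 TPM in controls. The sum of 5 skeletal muscle genes was 8224, 16371 and 6953 TPM in morphants 1, 2 and 3 and 32656, 10883 and 51110 TPM in controls 1, 2 and 3. None of these 15 markers was at 0 in any library. Muscle transcripts were thus present in every library, and more so in controls 1 and 3. These are RNA libraries, and the part of the cell mixture in the methylation differences was not tested.

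The highly methylated regions lost part of their methylation and mostly stayed methylated. Their median level was 0.703 in morphants and 0.886 in controls, and the median fall was 0.179. Weighted by the 11312 CpG sites the regions hold, the mean level was 0.69 in morphants and 0.882 in controls. The median region kept 79.7% of its control level, and the middle of the distribution, between the quartiles, kept 70.8 to 85.3%. In morphants 187 regions (20.2%) were still at 0.8 or more, 89 (9.61%) were under 0.5 and 3 (0.324%) were under 0.2. No member reached 0.1. The share under 0.5 depends on the limits set, at 17.8% with a control level of at least 0.75, 2.14% with at least 0.85, 5.36% with 10 or more CpG sites and 14.6% with a q under 0.01. The table lists no difference smaller than 0.1 in either direction, so members with a lesser fall, if any, are not in it, and no member can be above 0.9 in morphants.

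**Figure D1:**
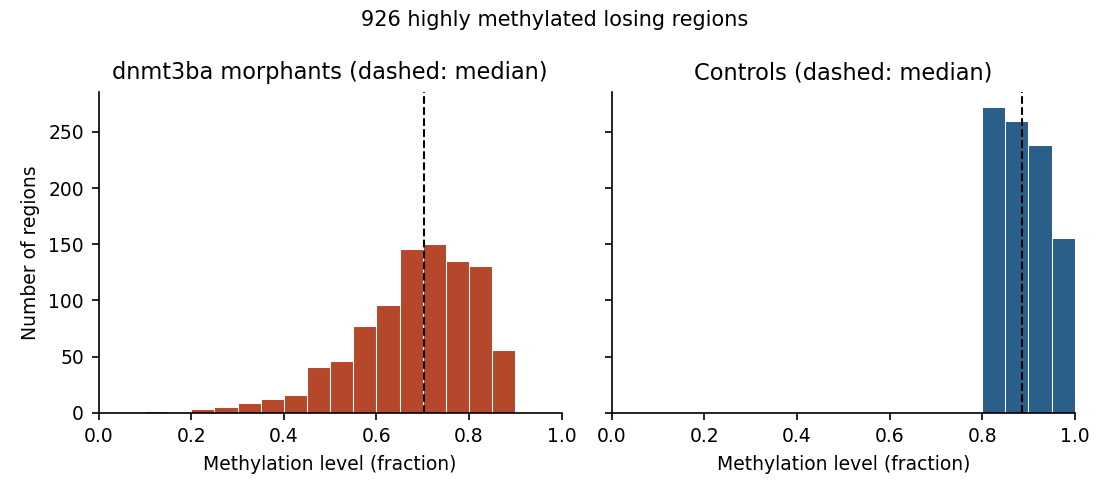
Number of the 926 highly methylated losing regions (vertical axis) by methylation level (fraction, bins of 0.05) in dnmt3ba morphants, left, and in controls, right, with the median dashed at 0.703 and 0.886. The control levels begin at 0.8 because the rule sets that limit, and most morphant levels lie between 0.6 and 0.9.

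The direction, which the rule fixes for the members, was also the common one in the table as a whole. Of all listed regions 90.2% were lower in morphants. Regions on the numbered chromosomes other than 4 and under the same CpG density limit were counted by control level. A level from 0.8 to under 0.9 leaves room for a listed change either way, but less for a rise. In that range, 532 of 663 regions (80.2%) were lower in morphants and 131 were higher. The largest fall there was 0.677 and the largest rise 0.169, so this share is not a balanced count of direction. At 0.9 and above, all 394 were lower, since a rise of 0.1 is out of range. The 131 highly methylated regions that rose had median levels of 0.973 in morphants and 0.848 in controls. They had a median of 7 CpG sites, against 12 in the 532 losing ones of the same range and 10 in all members. A mirrored choice, regions that rose to 0.8 or more in morphants, held 272 regions with median levels of 0.941 in morphants and 0.792 in controls.

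Falls of 0.1 to 0.2 were the most common, with 559 regions, followed by 239 between 0.2 and 0.3 and 86 between 0.3 and 0.4. Falls of 0.4 or more were found in 42 regions. In all, 367 members (39.6%) fell by 0.2 or more. Over the 4525 losing regions of any control level under the same chromosome and density limits, it was 65.0%. Of all listed regions, with the rising ones in the count, 56.4% were lower by that much. A q-value under 0.01 was listed for 471 members (50.9%), against 64.5% of all listed regions in either direction. Both shares are below those of the table. The rule used this contrast, so nothing further is read from them.

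The 6 largest falls show how rare a near-complete loss was among these regions, and positions are given in the build GRCz11. The first, chr7:54157041-54157118, had a level of 0.127 in morphants and 0.932 in controls over 5 CpG sites (q = 0.0033 in the authors' deposited table). The second, chr23:40818134-40818369, stood at 0.13 in morphants and 0.807 in controls over 14 CpG sites, with a q of 9.7e-09 in the authors' deposited table. The third, chr8:6990219-6990577, stood at 0.195 in morphants and 0.822 in controls over 6 CpG sites. These were the 3 members with the lowest level in morphants. chr3:54916809-54917074 stood at 0.289 in morphants and 0.914 in controls over 9 CpG sites. chr23:14608066-14608273 stood at 0.217 in morphants and 0.828 in controls, and chr12:2886441-2886553 at 0.205 in morphants and 0.812 in controls, each over 5 CpG sites. Among these 6, only the second held more than 9 CpG sites, so most of the largest falls rest on few sites.

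At the other end, the 3 smallest falls were just past the limit of 0.1 and held many CpG sites. Falls near the limit were also listed at few sites. The smallest was 0.1009 in members with 5 to under 7 CpG sites (n = 215). It was 0.1013 in those with 7 to under 10 (n = 189). How the limit on q and the number of sites bear on which small falls are listed was not tested. chr21:3864336-3864717 had a level of 0.799 in morphants and 0.9 in controls over 28 CpG sites. chr6:1249703-1249932 stood at 0.836 in morphants and 0.936 in controls over 20 CpG sites. chr19:21126851-21127382 stood at 0.786 in morphants and 0.886 in controls over 25 CpG sites.

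The fall was smaller where the control level was higher. Regions with a control level of 0.8 to 0.85 had a median fall of 0.25 (n = 272), those of 0.85 to 0.9 one of 0.189 (n = 260), those of 0.9 to 0.95 one of 0.151 (n = 238) and those above 0.95 one of 0.13 (n = 156). The share that ended under 0.5 in morphants was 27.6%, 3.85%, 1.68% and 0% in the same order. A region with a higher control level has to fall further to end under 0.5. This share would therefore go down along the classes even if their falls were alike. The regions share the same 6 libraries and a fall contains the control level, so this order is a description.

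The fall was also smaller in regions with more CpG sites. Regions with 5 or 6 CpG sites had a median fall of 0.209 (n = 215), and those with 20 or more one of 0.147 (n = 130), with medians of 0.19, 0.179 and 0.167 in the classes between. The share under 0.5 in morphants was 18.1% at 5 or 6 sites and 3.08% at 20 or more. The median q was 0.0246 at 5 or 6 sites and 0.000426 at 20 or more. Whether the larger falls at few sites come from which regions could be called was not tested.

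**Figure D2:**
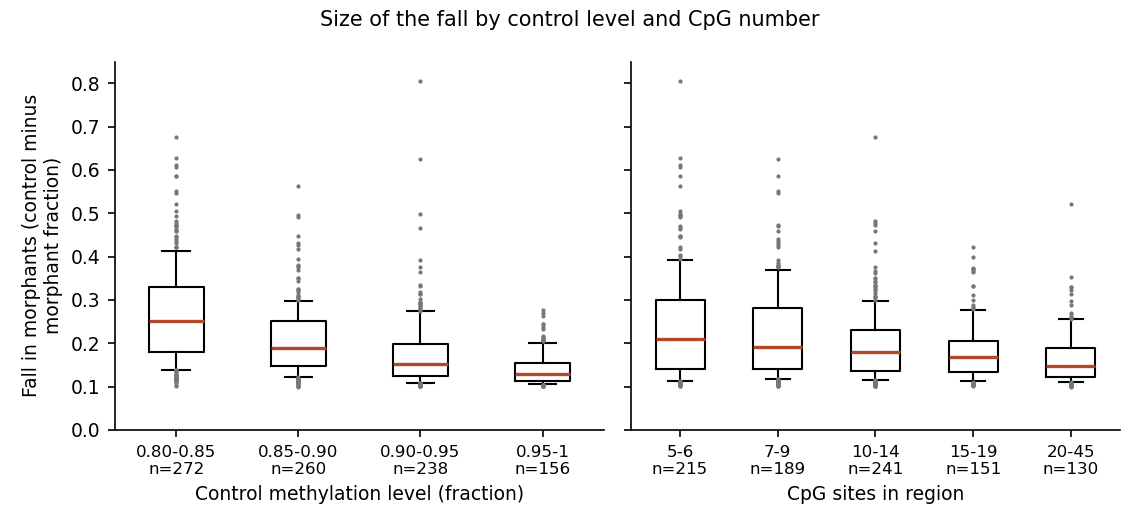
Fall in methylation (control minus morphant fraction, vertical axis) of the 926 regions by control level, left, and by number of CpG sites, right; boxes span the quartiles with the median in colour, whiskers run from the 10th to the 90th percentile, and points lie outside them. Medians go down from 0.25 to 0.13 with rising control level and from 0.209 to 0.147 with rising CpG number.

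The regions were short. Their median length was 192 bases, with a range of 51 to 1295, and their median number of CpG sites was 10, with a range of 5 to 45. Together they covered 230542 bases. Their median density was 5.88 CpG sites per 100 bases. Intermediately methylated regions that lose methylation under the same limits (control level of 0.2 to under 0.8) had a median length of 314 bases, 14 CpG sites and a density of 4.7. Over the whole table the median length was 223 bases. It was 224 in highly methylated losing regions on chromosome 4 and 168 in rising regions under the same density limit. Short regions were thus not particular to the members. By density, the median fall of the members was 0.181 under 2 CpG sites per 100 bases (n = 22), 0.202 at 2 to 4 (n = 186), 0.184 at 4 to 6 (n = 283), 0.162 at 6 to 8 (n = 231) and 0.165 at 8 to 10 (n = 204), with no steady order.

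The 3 levels that rest on the most CpG sites belong to long members, of 684, 840 and 855 bases. The member with the most sites was chr3:6480257-6480941, with 45, at 0.659 in morphants and 0.89 in controls (q = 2.2e-12 in the authors' deposited table). chr9:15540912-15541752, with 42 sites, stood at 0.795 in morphants and 0.927 in controls. chr24:29855095-29855950, with 41 sites, stood at 0.73 in morphants and 0.851 in controls. All 3 kept more than 70% of their control level.

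The longest member, chr19:38350542-38351837, spans 1295 bases with 39 CpG sites and had a level of 0.476 in morphants and 0.806 in controls (q = 5.7e-11 in the authors' deposited table). It was the only one of the 3 longest to end under 0.5 in morphants. chr21:8017013-8018260 (1247 bases, 23 sites) stood at 0.673 in morphants and 0.838 in controls. chr13:15626687-15627883 (1196 bases, 24 sites) stood at 0.724 in morphants and 0.89 in controls.

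The 3 lowest q-values went to regions with many sites and falls above the median of 0.179. chr8:24704758-24705324, with 30 sites, had the lowest q of all members, 3.3e-16 in the authors' deposited table, at 0.575 in morphants and 0.863 in controls. The next was chr7:28539878-28540087, with 20 sites, at 0.584 in morphants and 0.881 in controls (q = 1.0e-12 in the authors' deposited table). The third was the region with 45 sites on chromosome 3.

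Just inside the control level of 0.8, chr10:44833064-44833144 had a level of 0.533 in morphants and 0.8003 in controls, chr8:24704433-24704748 of 0.604 in morphants and 0.8005 in controls, and chr6:57811675-57811931 of 0.423 in morphants and 0.8005 in controls. Just outside it, chr20:47010605-47011262 had a level of 0.367 in morphants and 0.7999 in controls, chr15:18601691-18602147 of 0.62 in morphants and 0.7999 in controls, and chr18:18200287-18200511 of 0.51 in morphants and 0.7998 in controls. The falls of these 6 regions overlap across the limit. Of these, chr8:24704433-24704748 lies within 100 bases of chr8:24704758-24705324, the member with the lowest q, so they are not separate places.

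Set beside the other losing regions, the highly methylated ones kept a larger share of their methylation at the median. The 3354 intermediately methylated regions had median levels of 0.228 in morphants and 0.531 in controls, a median fall of 0.257, and kept a median 45.3%. The 245 lowly methylated regions (control level under 0.2) had median levels of 0.0212 in morphants and 0.162 in controls, and kept 13.5%. Over all 4525 such losing regions, the median fall was largest at control levels of 0.5 to 0.6, at 0.297, and smaller on both sides, at 0.135 for 0.1 to 0.2 and 0.142 for 0.9 and above. The classes are cut from the control level, and the lower limit of 0.1 on listed differences caps the share a region can keep, more so at low control levels. These are descriptions of how the table is composed and were not tested.

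**Figure D3:**
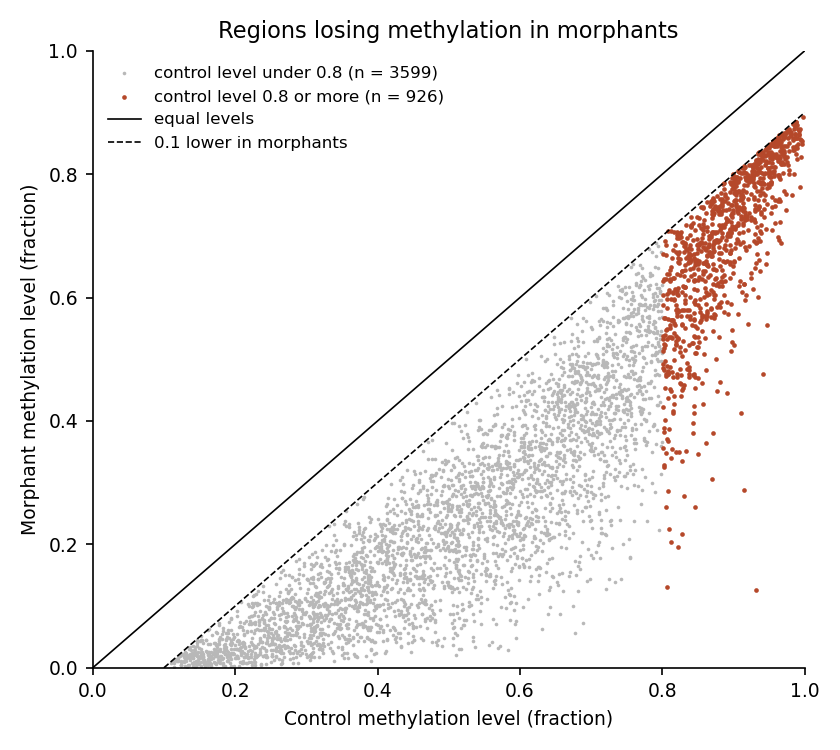
Morphant methylation level (fraction, vertical axis) against control level (fraction, horizontal axis) of 4525 losing regions, with the 926 regions at a control level of 0.8 or more in colour and the 3599 others in grey; the solid line marks equal levels and the dashed line a fall of 0.1. No point lies above the dashed line, and most coloured points lie close below it, with few under 0.5.

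The members were spread over all 24 chromosomes used. Their number was lowest on chromosomes 15 and 22, with 24 each, and highest on chromosome 3, with 58, and the share of losing regions that were highly methylated in controls was 9.52% on chromosome 15 and 27.9% on chromosome 13. The median level per chromosome lay between 0.656 and 0.767 in morphants and between 0.859 and 0.926 in controls, and the median fall between 0.156 and 0.21. Each chromosome was cut into stretches of 20%, from its first base to the end of its last listed region. In order, these held 18.7, 22.4, 20.4, 20.1 and 18.5% of the members. For the intermediately methylated regions the shares were 17.4, 21.6, 21.2, 20.5 and 19.4%.

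**Figure D4:**
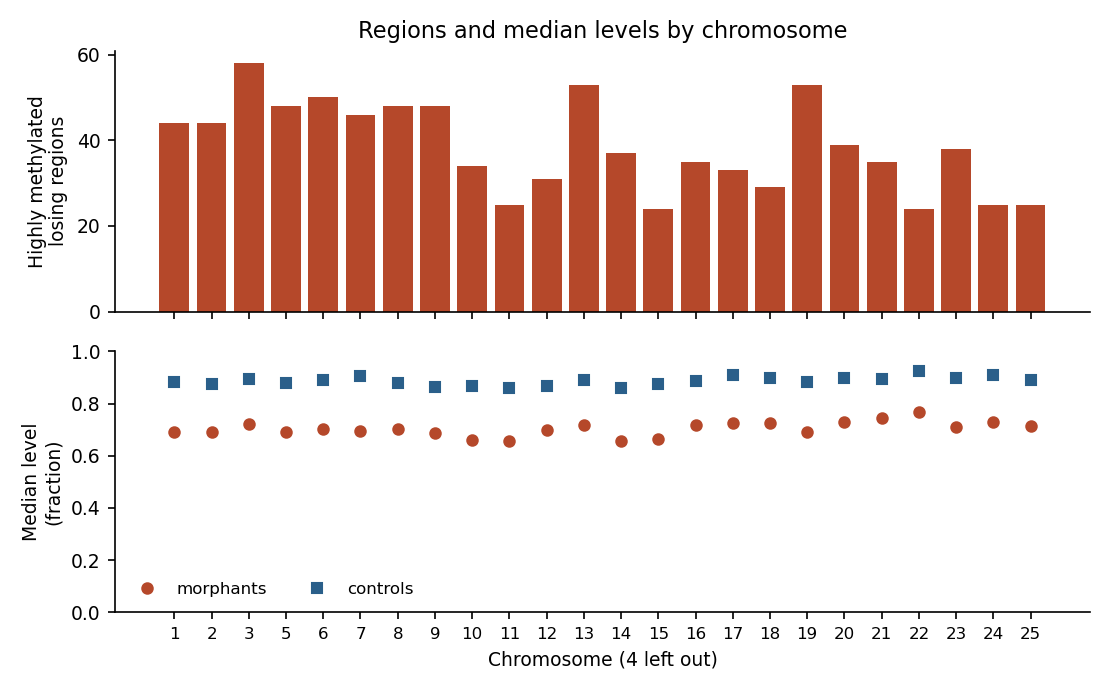
Number of highly methylated losing regions per chromosome, top, and the median methylation level (fraction) of those regions in morphants (circles) and controls (squares), bottom. Counts run from 24 to 58, and the morphant median lies under the control median on each chromosome, which the rule fixes.

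Most members stood alone. Of the 926, 654 (70.6%) had no other listed region within 10 kb, and 140 (15.1%) had another member within that distance. The median distance to the nearest other member was 365017 bases. Intermediately methylated regions are more numerous and lay closer to each other, with 39.7% within 10 kb of one of their own class and a median distance of 41984 bases. Of the 245 lowly methylated regions, 6.53% lay that close to one of their own class. Any listed region lay within 10 kb of 29.4% of members, 47.0% of intermediately and 31.4% of lowly methylated regions. Standing alone was thus not particular to the members. The members within 10 kb of another had median levels of 0.654 in morphants and 0.864 in controls, and the other 786 had 0.711 in morphants and 0.895 in controls. Chains of members up to 10 kb apart comprised 47 pairs, 7 groups of 3, 2 of 4, 1 of 5 and 2 of 6.

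The 2 groups of 6 show members falling side by side over several kilobases. The first, chr9:6148067-6154883, spans 6816 bases and holds 100 CpG sites in its members. From its start onwards the 6 levels were 0.533, 0.689, 0.668, 0.571, 0.668 and 0.78 in morphants, against 0.823, 0.832, 0.863, 0.863, 0.869 and 0.901 in controls. The second, chr19:22797107-22804636, spans 7529 bases and holds 84 CpG sites in its members. Its levels were 0.618, 0.589, 0.564, 0.65, 0.719 and 0.525 in morphants, against 0.831, 0.846, 0.813, 0.882, 0.889 and 0.819 in controls. In both, every morphant level is below every control level. The rule fixes this for any members under 0.8 in morphants, since control levels begin at 0.8. No other listed region lies within 10 kb of either group. The falls ran from 0.121 to 0.293 in the first group and from 0.17 to 0.295 in the second.

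**Figure D5:**
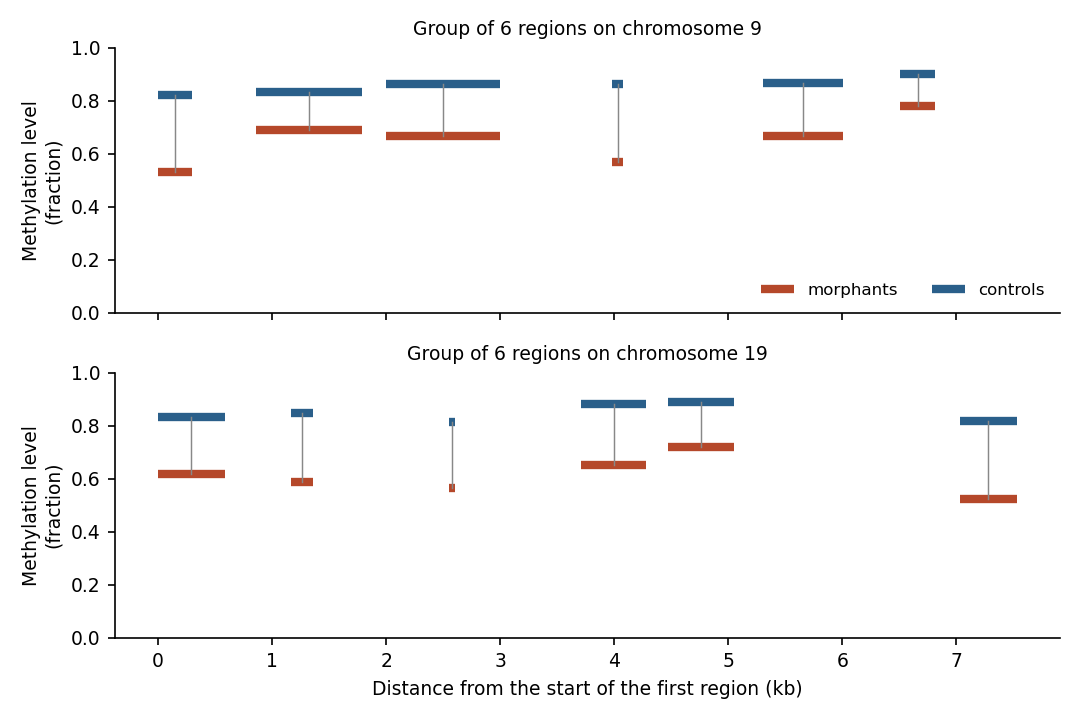
Methylation level (fraction, vertical axis) of each region in morphants and in controls, drawn as bars over its extent, against the distance from the start of the first region (kb), for the group of 6 regions on chromosome 9, top, and that on chromosome 19, bottom. Morphant bars lie between 0.525 and 0.78 and control bars between 0.813 and 0.901.

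Some members adjoin one another, so that 1 stretch of sequence counts as several regions. Of 81 neighbouring pairs up to 10 kb apart, 40 lay within 1 kb and 10 within 100 bases. The closest, on chromosome 1, comprised chr1:12944606-12944738, at 0.657 in morphants and 0.932 in controls, and chr1:12944739-12945293, at 0.751 in morphants and 0.884 in controls. On chromosome 3 the region with 45 sites lay 5 bases before chr3:6480946-6481266, at 0.804 in morphants and 0.907 in controls. On chromosome 9, chr9:40589906-40589992, at 0.685 in morphants and 0.851 in controls, lay 8 bases before chr9:40590000-40590316, at 0.574 in morphants and 0.821 in controls. The parts of a pair fell by different amounts, by 0.275 and 0.133 in the first pair, 0.232 and 0.103 in the second and 0.166 and 0.246 in the third. Neighbouring members up to 10 kb apart differed in fall by a median of 0.0778, and those farther apart by 0.07.

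Members that border on less methylated losing regions fell more. The 126 members within 10 kb of a losing region with a control level under 0.8 and a density under the same limit had median levels of 0.581 in morphants and 0.843 in controls, a fall of 0.274. The other 800 had median levels of 0.716 in morphants and 0.896 in controls, a fall of 0.169. These bordering members had lower control levels, so the values were set apart by control level. At 0.8 to 0.85 the median fall was 0.296 in bordering members (n = 78) and 0.236 in the others (n = 194), and at 0.85 to 0.9 it was 0.255 (n = 31) and 0.186 (n = 229). At 0.9 to 0.95 it was 0.14 in bordering members (n = 15) and 0.151 in the others (n = 223), so the difference was not seen there, and above 0.95 only 2 members bordered on such a region. Of the 89 members under 0.5 in morphants, 39 (43.8%) bordered on such a region, as did 87 of the other 837 (10.4%). Within control levels of 0.8 to 0.85, which hold 75 of these 89, the shares were closer, at 33 of 75 (44.0%) and 45 of 197 (22.8%). Regions were chosen on these same levels and are not independent, so no test was made.

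The largest falls belong to the members just counted, so they are no separate case. Some of them bordered on a less methylated losing region. chr8:6990219-6990577 lay 42 bases from a region of 30 CpG sites at 0.147 in morphants and 0.472 in controls. chr12:2886441-2886553 lay 20 bases from a region of 16 sites at 0.487 in morphants and 0.719 in controls. chr23:40818134-40818369 lay 243 bases from a region at 0.0495 in morphants and 0.377 in controls, and chr7:54157041-54157118 lay 3995 bases from one at 0.21 in morphants and 0.62 in controls. For the remaining 2, on chromosomes 3 and 23, the nearest listed region was 125 and 193 kb away. Falls of over 0.6 were thus found both beside other losing regions and far from any listed one.

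Chains of losing regions that join members with regions of lower control level numbered 108 and held 128 members. The one with the most regions, chr9:46568856-46586718, held 15 over 17.9 kb. Its 2 members stood at 0.26 and 0.505 in morphants and at 0.806 and 0.828 in controls. The other 13 regions ranged from 0.0373 to 0.402 in morphants and from 0.328 to 0.791 in controls. It was not the longest, as chr13:25313351-25361601 held 12 regions over 48.25 kb. The chain on chromosome 9 is thus 1 extreme of many. Of the 926 members, 10 (1.08%) lay within 10 kb of a rising region of any CpG density. For rising regions under the same density limit, the share was 0.864% of members. It was 1.31% of intermediately and 0.816% of lowly methylated losing regions, so the low share was not particular to the members.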

How the data were processed

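Regions came from the authors' deposited table of differences between 3 dnmt3ba morphant and 3 control bisulfite libraries. The bisulfite samples taken as morphant are titled CF rather than MO, and their group rests on their genotype label. Per the file headers, it holds a methylation fraction per group, a difference, the CpG sites counted in each region and an FDR, called the q-value below, with nothing per library. The deposited difference equals the morphant minus the control fraction to within 1e-05. Per the submitters' processing notes, BS-Seeker2 2.1.8 and the build GRCz11 were used. The sources used here do not name the region caller or the coverage minimum, nor say whether starts count from 0 or 1, and positions are printed as listed. Chromosome numbers follow the order of the RefSeq sequence names. Listed regions had at least 5 CpG sites. A pipeline that drops small differences, few sites or low coverage sets which regions can appear.

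Length is end minus start, and density is CpG sites per 100 bases of it. A fall is the control minus the morphant fraction, and the share kept is their ratio. The distance between regions is the gap between their ends. Functions were tested on made-up regions with known answers. Python 3.11.15, pandas 2.3.3 and SciPy 1.17.1 were used. No test of regions was made, since no value per library is given. Regions were not tied to genes or sequence, as no annotation or genome of that build was used, so the planned RNA test was not run.

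The authors' deposited TPM values and estimated counts, per the file headers, served for the target gene and marker sums. Total estimated counts were 24397076 to 25132656 per RNA library. Per the submitters' processing notes, HISAT2 2.2.1 and HTSeq 0.12.4 were named, without a role. The depth of the methylation libraries is unknown.

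The members, lists and alternatives were chosen with earlier results of these data known. Named regions are the 6 largest and 3 smallest falls, the 3 lowest morphant levels, the 3 with most sites, the 3 longest, the 3 lowest q-values, the 3 nearest each side of 0.8, the 2 largest groups and the 3 closest pairs. The neighbours of the largest falls and the named mixed chains were added after their values were seen. Alternatives were a q under 0.01, control levels of 0.75 and 0.85, at least 10 CpG sites, a density under 5, a fall of at least 0.2, and distances of 5 and 50 kb.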

Additional observations from a re-analysis of the deposited data

How the results depend on the processing

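The direction of the difference is fixed by the choice of members, so it cannot change, and what follows is how counts and medians moved. A median or share is said to have moved when it left its 95% binomial interval, which covers the number of regions only. The regions share the same libraries and some adjoin, so they are not independent. The interval serves as a yardstick and is not the error of a level. The median fall of 0.179 (interval 0.17 to 0.184), the median morphant level of 0.703 (0.692 to 0.712), the share under 0.5 in morphants of 9.61% (7.79 to 11.7%) and the share within 10 kb of another member of 15.1% (12.9 to 17.6%) are the values compared. With a q under 0.01, 471 members gave a median fall of 0.195, a morphant level of 0.672 and 14.6% under 0.5. With a control level of at least 0.75 the values were 0.192, 0.657 and 17.8%, with 19.1% within 10 kb, and with at least 0.85 they were 0.161, 0.748 and 2.14%, with 10.9% within 10 kb. At 10 or more CpG sites, 522 members gave a median fall of 0.167 and 5.36% under 0.5. At a density under 5, 345 members gave a fall of 0.19, a level of 0.673 and 13.9%. With a fall of at least 0.2, 367 members gave a fall of 0.273, a level of 0.581 and 24.3%. A distance of 50 kb gave 21.7% near another member. That share stayed inside its interval at a q under 0.01 (14.4%), at 10 or more sites (14.4%) and at a density under 5 (13.6%). It also did so with a fall of at least 0.2 (14.2%) and at a distance of 5 kb (13.7%). The median morphant level stayed inside its interval only at 10 or more sites (0.705). Each of these alternatives, other than the distances, keeps a subset or superset of the same regions by a measured value. The number of members was 1211 at a control level of at least 0.75 and 654 at 0.85. The median fall and the share under 0.5 moved in all 6 alternatives, and 75 of the 89 members under 0.5 had a control level of 0.8 to 0.85. The limit of 0.2 on the fall has to raise both values, so that move was fixed in advance. A control level of at least 0.85 leaves those 75 members out, so the lower share under 0.5 there follows from the choice. Likewise, a distance of 50 kb can only raise the share near another member, and one of 5 kb can only lower it. No paired analysis was possible because the region table has no value per library, and for the same reason no replicate could be left out. The RNA alternatives were not run. Depth and coverage are unknown, so the error of a single level cannot be given. Whether it is larger where a region has few CpG sites was not tested.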

Other observations

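Highly methylated losing regions outside the rule had levels near those of the members. The same limits on control level, direction and smallest difference chose them, which fixes much of this likeness. On chromosome 4, which the rule leaves out, 117 regions met its other limits, with mean levels weighted by CpG sites of 0.697 in morphants and 0.881 in controls, and 7.69% of them were under 0.5 in morphants. On unplaced scaffolds 201 regions did, with weighted means of 0.683 in morphants and 0.877 in controls, and 9.95% under 0.5. The 267 highly methylated losing regions at or above 10 CpG sites per 100 bases had weighted means of 0.729 in morphants and 0.895 in controls, with 4.49% under 0.5. Of these CpG-dense regions 24.3% fell by 0.2 or more, against 39.6% of members. In morphants 30.3% of them were still at 0.8 or more, against 20.2% of members. These differences were not tested.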
